A study of Mus musculus with 10 samples.

Results

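The 10 genes described here carry fatty acids from the capillary into the metabolism of the fat cell: Lpl, Gpihbp1, Cd36, Fabp3, Fabp4, Fabp5, Slc27a1, Slc27a2, Acsl1 and Acsl5. They were picked by symbol for these roles from the 15075 genes of the expression table, and all 10 were found in it and passed the filter on low values. Polyadenylated RNA was sequenced from the interscapular brown adipose tissue (iBAT) of 5 Control and 5 AdCKO mice, with 1 library per mouse. Both groups were C57BL/6 mice of 20 weeks kept at room temperature, and both were homozygous for a Crls1 allele whose exon 4 lies between loxP sites. AdCKO mice also carried Adipoq-Cre, in which the adiponectin promoter drives the recombinase in adipocytes, whereas Control mice, labelled wild-type, lacked Cre. Crls1 encodes cardiolipin synthase, the enzyme that makes the signature phospholipid of the inner mitochondrial membrane, and the comparison asks how the RNA of the tissue differs when adipocytes lack it. Cre acts in cells that use the adiponectin promoter, but the RNA came from the whole depot with its vessels and other cells.

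Brown fat burns fatty acids that it takes from the blood or from its own droplets. Lipoprotein lipase (LPL) is made mostly by adipocytes, moved across the capillary wall by GPIHBP1 and held there to release fatty acids from circulating triglyceride. CD36 and the FATP proteins (Slc27a genes) bring fatty acids across the membrane, FABP proteins carry them in the cytosol, and long-chain acyl-CoA synthetases (Acsl genes) join them to coenzyme A so that they can be oxidized or stored.

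The promoters of 3 genes that were lower in AdCKO iBAT, Slc27a2, Acsl1 and Acsl5, are shown because they are the stretches of DNA from which these transcripts start. They come from RefSeq on GRCm38.p6, each from 250 bases before to 50 bases after an annotated start site, all on the plus strand. They lie at chr2:126552774-126553073 for Slc27a2, chr8:46470787-46471086 for Acsl1 and chr19:55253119-55253418 for Acsl5. Capitals mark 3 short motifs on either strand, the nuclear receptor half-site AGGTCA, the GC box GGGCGG and the CCAAT box, named by its letters.
Slc27a2: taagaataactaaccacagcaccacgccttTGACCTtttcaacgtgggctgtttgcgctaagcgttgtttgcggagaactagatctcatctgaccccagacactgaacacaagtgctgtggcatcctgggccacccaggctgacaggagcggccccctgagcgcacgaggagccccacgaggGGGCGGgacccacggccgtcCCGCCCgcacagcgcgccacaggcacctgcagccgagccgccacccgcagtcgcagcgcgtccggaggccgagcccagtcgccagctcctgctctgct
Acsl1: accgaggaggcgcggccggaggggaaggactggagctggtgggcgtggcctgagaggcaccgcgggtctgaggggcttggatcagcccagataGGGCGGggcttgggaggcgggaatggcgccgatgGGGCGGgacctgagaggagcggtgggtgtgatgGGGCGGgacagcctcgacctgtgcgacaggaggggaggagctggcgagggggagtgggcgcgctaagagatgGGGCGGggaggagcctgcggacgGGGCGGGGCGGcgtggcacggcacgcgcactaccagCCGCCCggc
Acsl5: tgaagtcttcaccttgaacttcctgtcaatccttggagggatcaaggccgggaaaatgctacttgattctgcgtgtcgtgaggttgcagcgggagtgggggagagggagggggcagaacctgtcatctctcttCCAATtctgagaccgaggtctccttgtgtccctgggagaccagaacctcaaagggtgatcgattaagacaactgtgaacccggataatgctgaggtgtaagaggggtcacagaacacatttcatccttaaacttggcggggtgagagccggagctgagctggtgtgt

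The 3 promoters held different motifs. The Slc27a2 window had an AGGTCA half-site 220 bases before the start and GC boxes 68 and 48 bases before it. In the Acsl1 window 7 GC boxes were found, of which 2 overlap by 1 base, whereas a second annotated Acsl1 start had 2 CCAAT boxes and no GC box. The Acsl5 window held 1 CCAAT box, 117 bases before the start. Of all 32851 annotated promoters of this length, 16.3% held AGGTCA, 35.7% the GC box and 37.4% the CCAAT box. The full direct repeat bound by PPAR-RXR dimers, made of AGGTCA, any 1 base and AGGTCA again, occurred in 0.0396% of promoters, and TATAAA (13.6%) and the C/EBP-ATF composite site TGATGCAA (0.895%) were also searched. None of these 3 was present in the 9 windows annotated for the 6 genes with an entry, and Lpl, Gpihbp1, Fabp4 and Fabp5 had no entry. A match is a description of the letters and not evidence of binding.

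Values are normalized reads per kb of counted exon, so they compare genes as well as libraries. Fold changes are on the scale of log2(value + 1) from limma with a two-sided test, adjusted by the Benjamini-Hochberg method over 11244 tested genes, with calls made below 0.01. The knockout of the targeted gene was visible in every library, with Crls1 between 812.82 and 1290.8 in Control and from 192.6 up to 249.23 in AdCKO (log2 fold change -2.27, adjusted p = 3.53e-08). Summed normalized reads were 7615403 to 8171138 per Control library and 5419800 to 5843024 per AdCKO library. Depth before normalization is unknown. Scaling the libraries to equal totals moved the median over all tested genes from -0.01 to 0.46 (log2), and 9.77% were then called lower and 60.6% higher, against 28.0% and 25.6% with the deposited values.

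AdCKO libraries differed among themselves in skeletal muscle markers, whose part in the results was not tested. The sum of 8 such markers was 97.4 to 128 in Control, 145 and 130 in AdCKO 3 and 5, and 5888, 22537 and 8828 in AdCKO 1, 2 and 4, and 1 of the 8, Acta1, was called higher. Adipocyte markers summed to 57555 to 69099 in Control and 24755 to 36202 in AdCKO. Of the 8, 7 were called lower. Their falls were uneven, with log2 fold changes from -1.63 for Cidea, -1.23 for Pnpla2 and -1.20 for Lipe to -0.47 for Pparg. Plin4, at -0.35, was not called. All 10 macrophage markers were called higher, and their sum was 462 to 1332 in Control and 6292 to 8376 in AdCKO, led by Lyz2, a lysozyme, and Cd68. Of 10 endothelial markers 4 were called higher (Pecam1, Cldn5, Ramp2 and Eng) and 6 were not called, with sums of 2465 to 3061 and 2813 to 3834. The log2 fold changes of the 6 ran from -0.40 for Kdr (adjusted p = 0.023 with limma) to 0.25 for Egfl7. Of 5 brown adipocyte markers 3 were lower (Ucp1, Cidea and Prdm16) and 2 were not called. These were Dio2, at a log2 fold change of 0.90 (adjusted p = 0.015 with limma), and Elovl3, at -0.06. Of 6 fibroblast and mural markers 4 were higher and 1 lower. The 3 lymphocyte markers tested were not called (adjusted p of 0.17 to 0.79 with limma). In a whole tissue, fewer cells of a type and less RNA per cell cannot be told apart.

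**Figure D1:**
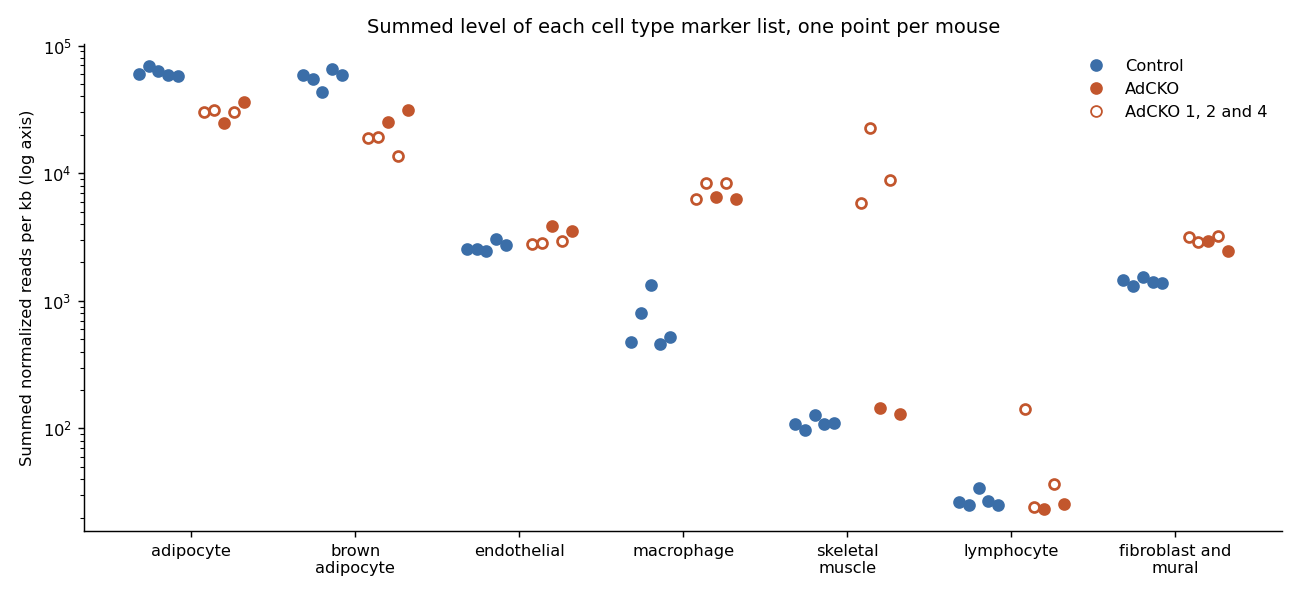
Summed normalized reads per kb (log axis) of 7 lists of cell type markers, with 1 point per mouse, Control in blue, AdCKO in orange, and AdCKO 1, 2 and 4 as open points. The muscle sum of AdCKO 1, 2 and 4 lies between 5888 and 22537, against at most 145 in the other libraries. Groups overlap for the endothelial and lymphocyte sums and are apart for the other lists. For muscle they are apart only narrowly (at most 128 in Control, at least 130 in AdCKO).

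Among the 10 genes, 4 fell in AdCKO (Slc27a1, Slc27a2, Acsl1 and Acsl5), 1 rose (Lpl) and 5 were not called. With 5 of 10 called, the share was close to the 53.6% of all tested genes (28.0% lower, 25.6% higher). The values did not overlap between groups for 6 of the 10, against 50.9% of all tested genes. The median log2 fold change of the 10 was -0.16, beside -0.01 over all tested genes. Without AdCKO 1, 2 and 4, 3 were called lower and Lpl remained the only one called higher. Among all tested genes 19.3% were then lower and 18.7% higher. At equal library totals 2 were called lower and 5 higher, beside 9.77% and 60.6% of all tested genes. With quantile normalization it was 2 and 4, beside 31.1% and 22.5% of all tested genes.

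**Figure D2:**
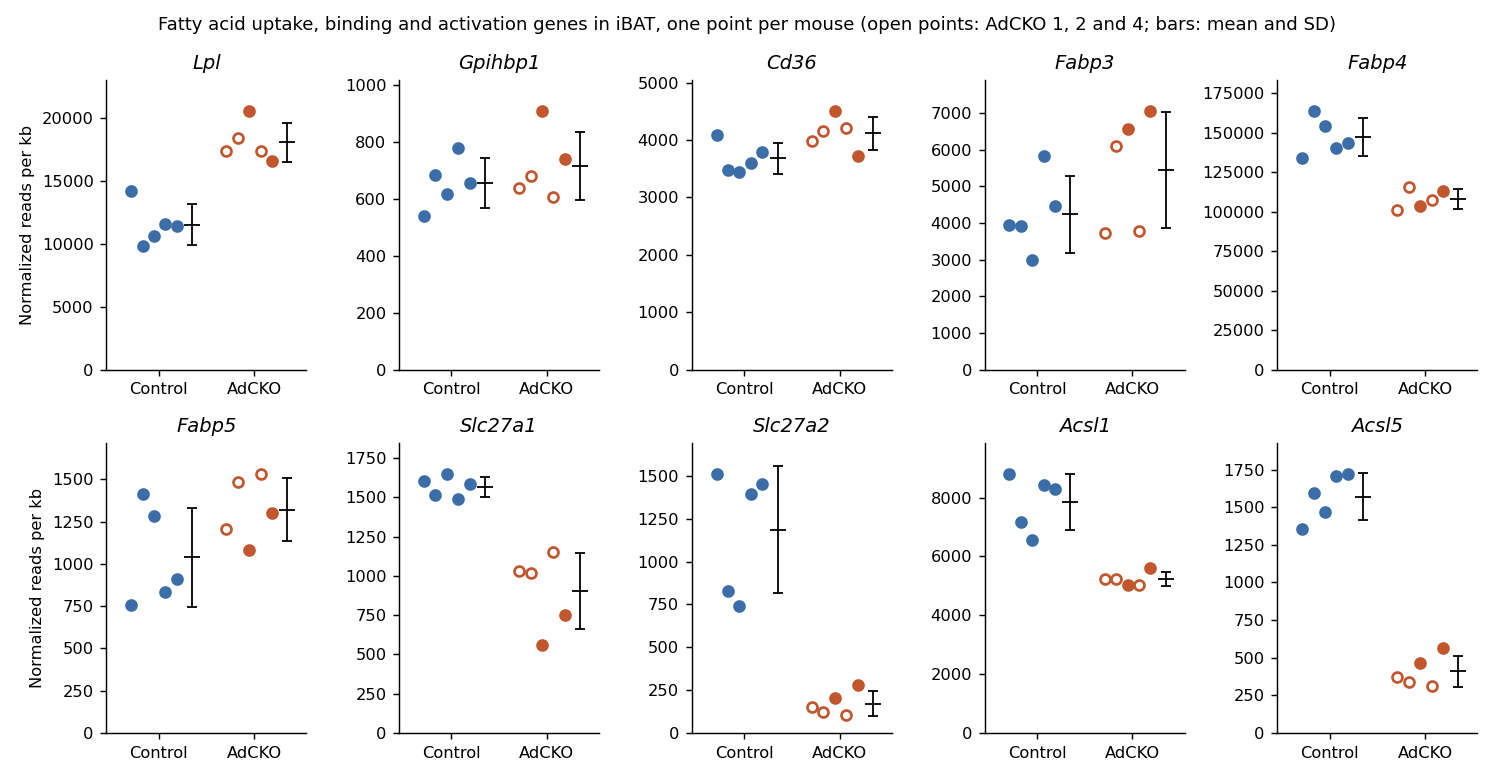
Normalized reads per kb of each gene, with 1 point per mouse, Control in blue and AdCKO in orange, AdCKO 1, 2 and 4 as open points, and bars for the mean and SD of 5 libraries. Lpl, Fabp4, Slc27a1, Slc27a2, Acsl1 and Acsl5 show no overlap between groups, whereas Gpihbp1, Cd36, Fabp3 and Fabp5 do.

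Lpl, which encodes the lipase (chr8:71404454-71430831 in mm9, plus strand), rose in AdCKO. Control 1 to 5 measured 14204, 9798.6, 10628, 11552 and 11418 normalized reads per kb, and AdCKO 1 to 5 measured 17398, 18358, 20554, 17343 and 16566. The highest Control library stayed under the lowest AdCKO library. The means were 11520 ± 1656 and 18044 ± 1541 (SD, n = 5), and the log2 fold change was 0.65 (SE 0.12, adjusted p = 0.00038 with limma), and Lpl moved from the 26th to the 5th highest level per kb of all genes. Equal totals gave a log2 fold change of 1.14 (0.68 relative to the median of all genes) and quantile normalization 1.80. Macrophages also express Lpl, and their markers were higher in the same libraries. Set against the mean log2 level of the adipocyte markers within each library, Lpl was 1.49 log2 units higher in AdCKO, and against the macrophage markers the difference was -1.84, both without overlap (exact permutation p = 0.0079, the smallest that 5 against 5 libraries allow). Against the endothelial markers it was 0.42 higher, with overlap (exact permutation p = 0.024), and 0.24 higher without AdCKO 1, 2 and 4 (exact permutation p = 0.29). The part of each cell type in the rise was not tested.

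Gpihbp1, which encodes the endothelial anchor of LPL (chr15:75427088-75428643 in mm9, plus strand), was not called. Levels in Control 1 to 5 were 537.84, 682.95, 617.76, 777.58 and 653.55, and AdCKO 1 to 5 measured 638.53, 679.2, 908.35, 606.42 and 740.48 normalized reads per kb. All but AdCKO 3 lay within the range of Control. Means were 654 ± 87.9 and 715 ± 119 (SD, n = 5), and the log2 fold change was 0.12 (SE 0.12, adjusted p = 0.39 with limma), 0.34 without AdCKO 1, 2 and 4 (adjusted p = 0.068), and 0.60 and called at equal totals (0.14 relative to the median of all genes). Relative to the endothelial markers of the same library, Gpihbp1 differed by -0.11 log2 units (exact permutation p = 0.15). The ratio of Gpihbp1 to Lpl was 0.0379 to 0.0698 in Control and 0.0350 to 0.0448 in AdCKO, a difference of -0.53 log2 units with overlap (exact permutation p = 0.024). Without AdCKO 1, 2 and 4 that difference was -0.35 (exact permutation p = 0.29).

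Cd36, a scavenger receptor that takes up long-chain fatty acids in both adipocytes and endothelium (chr5:17287508-17394777 in mm9, minus strand), was not called. It measured 4083.6, 3471.8, 3441, 3606.6 and 3790.5 in Control 1 to 5 and 3978.7, 4166.2, 4510, 4208 and 3727.1 normalized reads per kb in AdCKO 1 to 5. AdCKO 2, 3 and 4 exceeded every Control library and the other AdCKO libraries did not. The means of 3679 ± 265 and 4118 ± 290 (SD, n = 5) gave a log2 change of 0.16 (SE 0.08, adjusted p = 0.10 with limma). At equal totals it was 0.64 and called, which is 0.18 above the median of all genes, and with quantile normalization it was 0.86 and called. Relative to the endothelial markers of each library, Cd36 differed between groups by -0.07 log2 units (exact permutation p = 0.56), relative to the adipocyte markers by 0.99 and relative to the macrophage markers by -2.34 (exact permutation p = 0.0079 for both). The ratio of Cd36 to Lpl fell from 0.288 to 0.354 in Control to 0.220 to 0.243 in AdCKO, without overlap (difference of -0.49 log2 units, exact permutation p = 0.0079).

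Slc27a1 encodes FATP1, a transporter with acyl-CoA synthetase activity found in brown fat and muscle (chr8:74092826-74110607 in mm9, plus strand). In Control 1 to 5 it measured 1603.3, 1516, 1648.7, 1489.7 and 1582.7, and AdCKO 1 to 5 measured 1033, 1019.4, 559.08, 1151.2 and 752.8 normalized reads per kb. The Control libraries lay close together, whereas AdCKO 3 and 5 were lower than AdCKO 1, 2 and 4, the libraries with muscle markers. The mean fell from 1568 ± 64.8 to 903 ± 241 (SD, n = 5), and the log2 fold change was -0.84 (SE 0.17, adjusted p = 0.00073 with limma), and -1.27 without AdCKO 1, 2 and 4. It was -0.36 and not called at equal totals, which is -0.82 relative to the median of all genes, and under quantile normalization it was -0.47 and not called. Relative to the adipocyte markers, Slc27a1 differed by -0.01 log2 units (exact permutation p = 0.95), and by -0.41 without AdCKO 1, 2 and 4 (exact permutation p = 0.048).

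Slc27a2 encodes FATP2, an acyl-CoA synthetase for very long-chain fatty acids and transporter best known from liver and kidney (chr2:126378760-126413979 in mm9, plus strand), and it had the largest fall of the 10. The Control libraries 1 to 5 had 1510.5, 830.93, 740.47, 1397.1 and 1454.5 normalized reads per kb, and AdCKO 1 to 5 measured 149.37, 119.38, 202.87, 104.51 and 281.73. Control 2 and 3 were lower than the other Control libraries, yet still above every AdCKO library. The mean of 1187 ± 370 fell to 172 ± 72.2 (SD, n = 5), or 14.5% of Control, with a log2 fold change of -2.81 (SE 0.28, adjusted p = 3.02e-06 with limma). Slc27a2 went from the 422nd to the 2704th level per kb. It fell by 1.98 log2 units relative to the adipocyte markers as well (exact permutation p = 0.0079). A lincRNA on the opposite strand, Gm16762, shares 419 exonic bases with Slc27a2, and whether strand was used in counting is not given in the sources used here.

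The balance of the FATP transcripts therefore shifted. Slc27a2 stood at 0.449 to 0.942 of the level of Slc27a1 in Control and at 0.0916 to 0.375 in AdCKO, a difference of -1.97 log2 units without overlap (exact permutation p = 0.0079). Leaving out AdCKO 1, 2 and 4 changed it to -0.97 (exact permutation p = 0.048, the smallest that 5 against 2 libraries allow). Of the sum over the 5 FATP genes in the table, Slc27a2 made up 40.5% ± 8.34 in Control and 15.5% ± 8.23 in AdCKO, and Slc27a1 made up 55.3% ± 7.64 and 75.7% ± 8.82 (SD, n = 5). The sum itself was 2479.1 to 3217.6 normalized reads per kb in Control and 850.78 to 1363.1 in AdCKO. Slc27a4, FATP4, at 102 ± 10.3 and 82.2 ± 8.61 (SD, n = 5; log2 fold change -0.31, adjusted p = 0.0102 with limma), was just short of a call. It was called lower without Control 1, without AdCKO 2 and without AdCKO 1, 2 and 4. The same held with quantile normalization, with the trend fitted robustly and at a threshold of 0.05. Slc27a3, at 12.9 ± 1.18 and 17.6 ± 1.59, was called higher by 0.42 (adjusted p = 0.0019 with limma). That call was lost without AdCKO 1, 2 and 4, with quantile normalization and with the replicate number as a block.

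Fabp4, the fatty acid binding protein of adipocytes, which endothelial cells and macrophages also make (chr3:10204343-10208576 in mm9, minus strand), had the highest level per kb of all genes in both groups. Control 1 to 5 measured 134139, 163946, 154240, 140146 and 143732, and AdCKO 1 to 5 measured 101185, 115806, 103509, 107302.5 and 113374 normalized reads per kb. All AdCKO libraries lay below all Control libraries. The means were 147241 ± 11857 and 108235 ± 6258 (SD, n = 5), and the log2 fold change was -0.44 (SE 0.15) and not called (adjusted p = 0.020 with limma, exact permutation p = 0.0079). Without the intensity trend limma gave the same fold change with an adjusted p of 0.00026, and equal totals gave 0.04, which is -0.42 relative to the median of all genes. As a share of each library's normalized reads, Fabp4 took 1.10% to 1.30% in Control and 1.19% to 1.30% in AdCKO (exact permutation p = 0.45). Its log2 difference between groups was 0.39 relative to the adipocyte markers, -0.68 relative to the endothelial markers and -2.94 relative to the macrophage markers, each without overlap (exact permutation p = 0.0079).

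Fabp3, the heart and muscle form, which brown fat also expresses (chr4:129986022-129992707 in mm9, plus strand), was not called. It measured 3939.9, 3922.4, 2999.8, 5842.5 and 4471.9 in Control 1 to 5 and 3729.5, 6114.5, 6554.3, 3794.5 and 7063 normalized reads per kb in AdCKO 1 to 5. AdCKO 1 and 4 lay below the Control mean and the other AdCKO libraries above all Control libraries, with AdCKO 5 and 3 the highest. Means were 4235 ± 1043 and 5451 ± 1578 (SD, n = 5), and the log2 fold change was 0.35 (SE 0.22, adjusted p = 0.18 with limma). With AdCKO 1, 2 and 4 left out it was 0.72 (adjusted p = 0.016), and at equal totals or under quantile normalization it was 0.83 and 1.06 and called, or 0.37 and 1.14 relative to the median of all genes. Exons of Zcchc17 on the opposite strand overlap Fabp3 by 160 bases, and Zcchc17 itself stood at 78.3 to 121 normalized reads per kb and was called lower (log2 fold change -0.35). A sequence elsewhere in mm9 matches 750 bases of the Fabp3 transcript at 94.4% identity, so reads could be shared with it.

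Fabp5, the epidermal form, found in endothelium, macrophages and adipocytes (chr3:10012585-10016610 in mm9, plus strand), was not called either. Levels in Control 1 to 5 were 755.4, 1416.1, 1284.5, 831.73 and 911.95, and AdCKO 1 to 5 measured 1208.6, 1481.9, 1082.2, 1531.3 and 1302 normalized reads per kb. Control 2 and 3 reached the AdCKO range and the remaining Control libraries stayed under it. The means of 1040 ± 292 and 1321 ± 187 (SD, n = 5) gave a log2 change of 0.38 (SE 0.17, adjusted p = 0.071 with limma). Equal totals gave 0.86 and quantile normalization 0.75, and both were called. Control 2 and 3 also had the highest sums of macrophage markers among the Control libraries, 796 and 1332, although Fabp5 was higher in Control 2. A link between Fabp5 and these markers was not tested. Relative to the macrophage markers, all 10 of which were called higher in AdCKO, Fabp5 differed by -2.12 log2 units (exact permutation p = 0.0079). This difference is not a lower level of Fabp5. Fabp5, too, has a near copy elsewhere in mm9, of 653 bases at 95.7% identity.

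Within a library, the minor binding proteins gained on Fabp4. The ratio of Fabp5 to Fabp4 was 0.00564 to 0.00864 in Control and 0.0105 to 0.0143 in AdCKO, higher by 0.82 log2 units without overlap (exact permutation p = 0.0079). Fabp3 to Fabp4 was 0.0195 to 0.0417 and 0.0354 to 0.0633, higher by 0.79 with overlap (exact permutation p = 0.024). The ratio of Fabp3 to Fabp5 differed by -0.03 (exact permutation p = 0.92) and ran from 2.33 to 7.02 within Control. Fabp4 still supplied 96.5% ± 0.68 of the sum of the 3 in Control and 94.1% ± 1.10 in AdCKO (SD, n = 5).

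**Figure D3:**
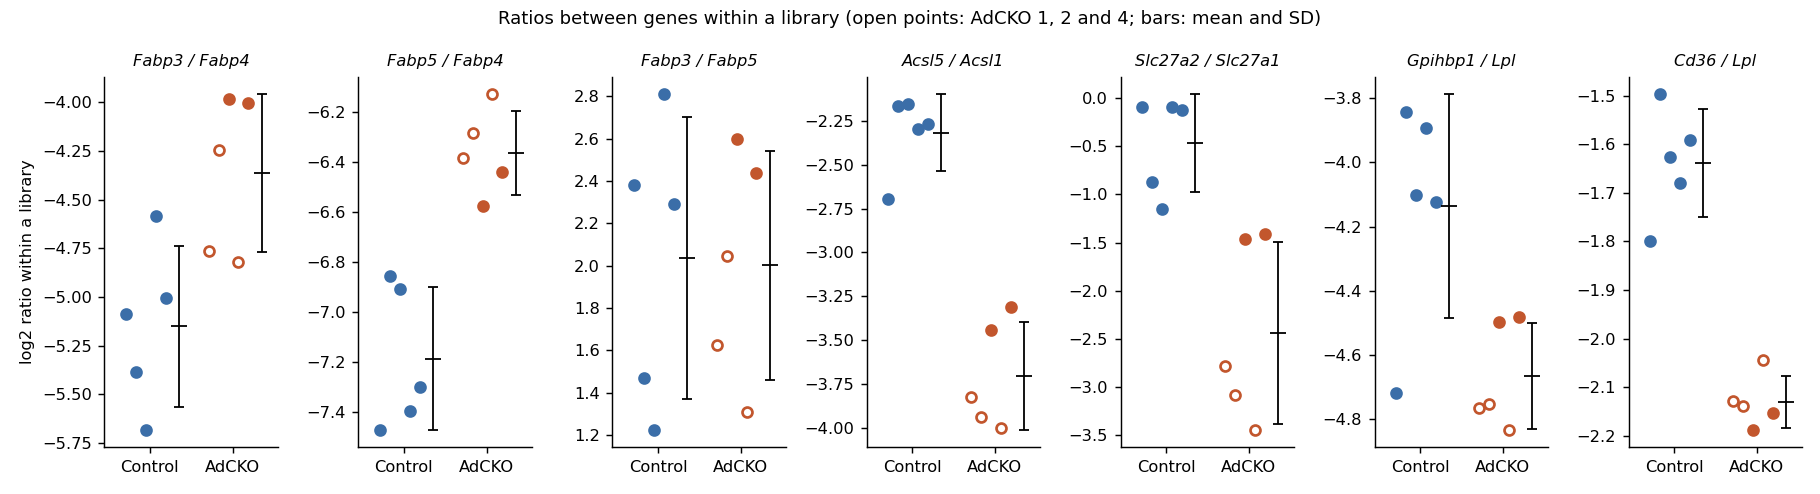
Log2 ratio of one gene to another within each library for 7 pairs, with 1 point per mouse, Control in blue, AdCKO in orange, AdCKO 1, 2 and 4 as open points, and bars for the mean and SD. Groups are apart for Fabp5 to Fabp4, Acsl5 to Acsl1, Slc27a2 to Slc27a1 and Cd36 to Lpl, and overlap for Fabp3 to Fabp4, Fabp3 to Fabp5 and Gpihbp1 to Lpl.

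Acsl1, the main long-chain acyl-CoA synthetase of adipocytes (chr8:47556396-47621404 in mm9, plus strand), fell. In Control 1 to 5 it measured 8795.1, 7181.3, 6542.2, 8413.9 and 8288.2 normalized reads per kb, and AdCKO 1 to 5 measured 5238.5, 5224.3, 5036.5, 5016 and 5610.9. The AdCKO libraries varied by 4.57% around their mean and all lay below Control. Means were 7844 ± 943 and 5225 ± 239 (SD, n = 5), and the log2 fold change was -0.58 (SE 0.10, adjusted p = 0.00024 with limma), and -0.55 without AdCKO 1, 2 and 4, where it was no longer called (adjusted p = 0.011). Its direction turned with the scaling, being -0.10 at equal totals (-0.56 relative to the median of all genes) and 0.29 under quantile normalization, neither of them called. As a share of normalized reads Acsl1 took 0.334% to 0.438% in Control and 0.345% to 0.374% in AdCKO (exact permutation p = 0.24). It was 0.25 log2 units higher in AdCKO relative to the adipocyte markers (exact permutation p = 0.016), which did not hold when any 1 AdCKO library was left out (0.20 to 0.27, exact permutation p of 0.056 to 0.13). By level per kb, Acsl1 ranked 55th in Control and 33rd in AdCKO.

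Acsl5, an acyl-CoA synthetase of mitochondria and endoplasmic reticulum (chr19:55327859-55371118 in mm9, plus strand), fell further. The Control libraries 1 to 5 had 1358.9, 1598.2, 1469.5, 1709.9 and 1720.4 normalized reads per kb, and AdCKO 1 to 5 measured 368.69, 339.99, 463.01, 311.83 and 564.51. Every AdCKO library was far below the lowest Control library, and AdCKO 3 and 5 were the highest of their group. The mean fell from 1571 ± 156 to 410 ± 104 (SD, n = 5), or 26.1% of Control, a log2 fold change of -1.97 (SE 0.15, adjusted p = 3.13e-07 with limma), and -1.61 without AdCKO 1, 2 and 4. Relative to the adipocyte markers it fell by 1.14 log2 units (exact permutation p = 0.0079), and by 0.75 without AdCKO 1, 2 and 4 (exact permutation p = 0.048).

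The ratio of Acsl5 to Acsl1 was 0.155 to 0.225 in Control and 0.0624 to 0.101 in AdCKO, a difference of -1.39 log2 units without overlap (exact permutation p = 0.0079). Summed over the 5 Acsl genes, Acsl1 rose from 81.1% ± 1.84 to 89.4% ± 1.63 of the total and Acsl5 went from 16.4% ± 1.99 to 6.96% ± 1.40 (SD, n = 5). Acsl4, a synthetase that prefers arachidonic acid, went from 0.611% ± 0.0747 to 1.85% ± 0.299. The coding sequences of Acsl1 and Acsl5 are 64.8% identical and share no run longer than 18 bases, and those of Fabp3 and Fabp4 (66.5%) share none longer than 14.

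**Figure D4:**
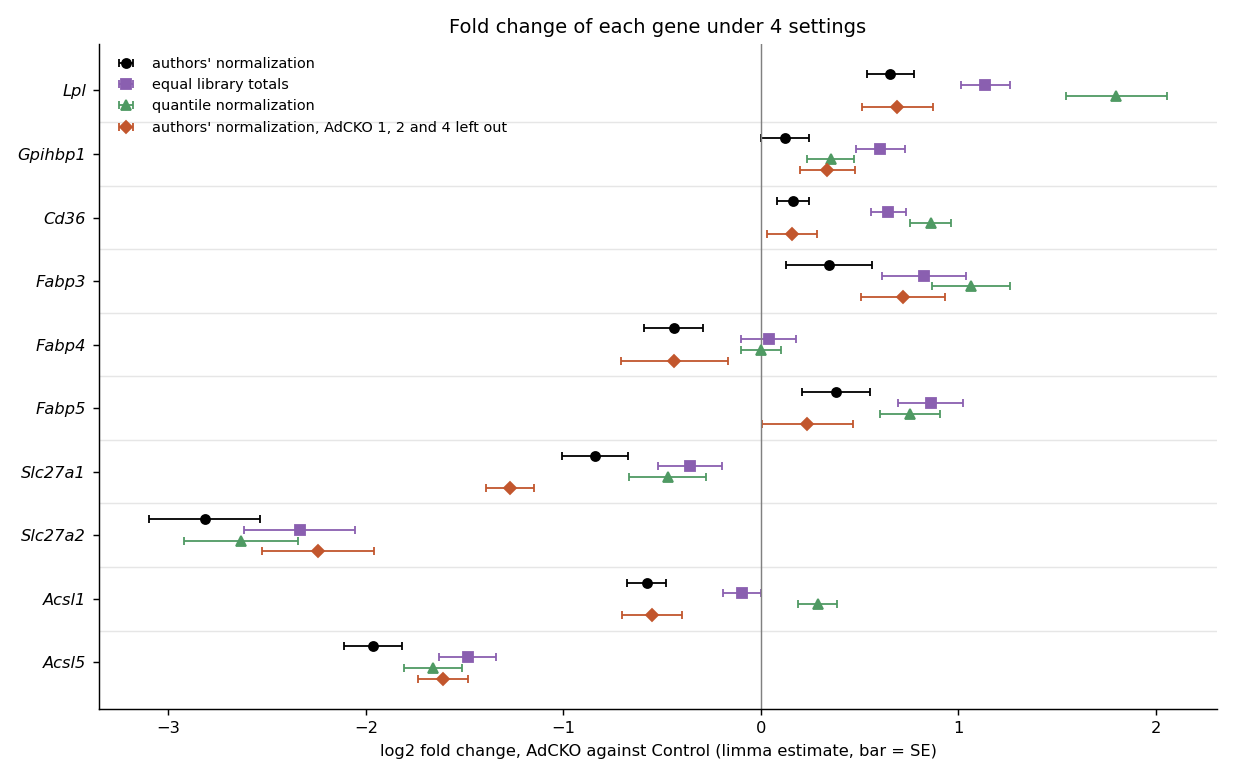
Log2 fold change of each gene, AdCKO against Control, as estimated by limma (bars: SE) with the authors' normalization, equal library totals, quantile normalization, and without AdCKO 1, 2 and 4. Lpl lies above 0 and Slc27a1, Slc27a2 and Acsl5 below 0 at every setting, whereas Acsl1 moves from -0.58 to 0.29 and Fabp4 from -0.44 to 0.04.

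Slc27a2 and Acsl5 thus had the largest falls and were called lower at each of the 3 scalings. Both fell relative to the adipocyte markers of the same libraries, whereas Fabp3, which was 1.18 log2 units higher against them (exact permutation p = 0.0079), Fabp4, Cd36 and Lpl gained on them. Of these 8 markers 7 are themselves lower in AdCKO, so a gain on them need not be a higher level in the tissue. Lpl was also called higher in its own right. By themselves Fabp4 (-0.44), Acsl1 (-0.58) and Slc27a1 (-0.84) had log2 fold changes inside the range of the 8 markers. All 10 macrophage markers were called higher, so a negative difference against those need not be a lower level.

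Genes that act beside the 10 were counted from 8 lists. Of 95 genes listed, 82 were in the table and 74 were tested, of which 41 were called lower, 12 higher and 21 not called, with a median log2 fold change of -0.49. Over all tested genes 28.0% were lower and 25.6% higher, and the median was -0.01. Without AdCKO 1, 2 and 4, 35 of the 74 were lower and 7 higher, where 19.3% of all tested genes were lower and 18.7% higher. At equal totals the counts were 29 and 25, where 9.77% of all tested genes were lower and 60.6% higher. The counts of each list below are to be read beside these shares.

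**Figure D5:**
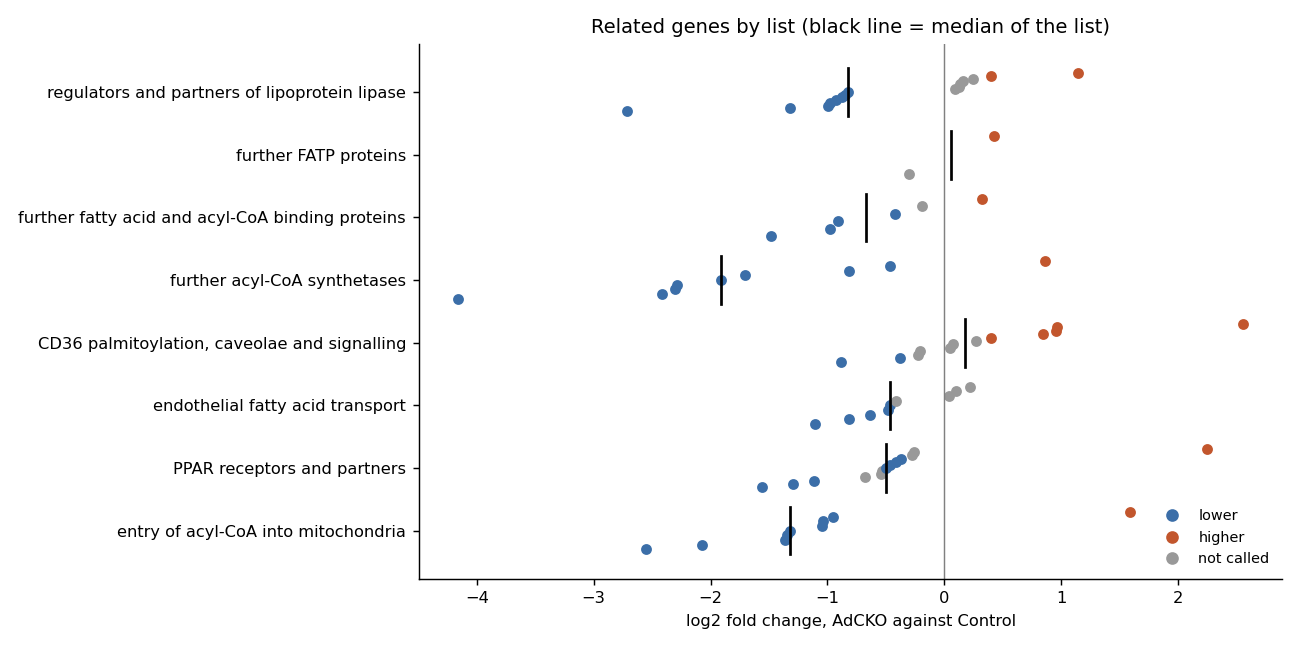
Log2 fold change of each tested gene of 8 lists, AdCKO against Control, with genes called lower in blue, called higher in orange and not called in gray, and the median of each list as a black line. Medians run from -1.91 for the further acyl-CoA synthetases to 0.17 for the list around CD36.

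Of 15 regulators and partners of LPL tested, 8 were lower, 2 higher and 5 not called (median -0.83). The shares over all tested genes were 28.0% lower and 25.6% higher. Apoc1, an apolipoprotein that inhibits lipoprotein lipase, fell from a Control mean of 4386 ± 550 to 676 ± 135 normalized reads per kb (SD, n = 5; log2 fold change -2.71, adjusted p = 3.05e-08 with limma). Furin, a protease that cleaves LPL and its regulators, fell (log2 fold change -0.85), as did Vldlr, a lipoprotein receptor (-0.83), and Pcsk6, another proprotein convertase (-1.32). The members that rose were Apoc2, the activator of LPL, with 11.7 ± 0.544 and 27.4 ± 4.84 normalized reads per kb (log2 fold change 1.15, adjusted p = 2.59e-06), and Sel1l, which helps LPL to leave the endoplasmic reticulum (0.40, adjusted p = 0.00032). Lmf1, the maturation factor of LPL, fell by 0.98 (adjusted p = 1.67e-05), and Angptl4, its inhibitor, was at 847 ± 141 and 897 ± 85.7 (log2 fold change 0.09, adjusted p = 0.48). At equal totals 6 of the list were lower and 7 higher, beside 9.77% and 60.6% of all tested genes. Without AdCKO 1, 2 and 4 it was 6 and 1, beside 19.3% and 18.7%.

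In the list around CD36, 2 of 12 were lower, 5 higher and 5 not called (median 0.17), so that the 7 called were close in share to the 53.6% of all tested genes. Prkcdbp, which encodes cavin-3 of the caveolar coat, rose from a Control mean of 131 ± 33.0 to 765 ± 146 normalized reads per kb (SD, n = 5; log2 fold change 2.56, adjusted p = 1.26e-07 with limma). Lyn and Fyn, Src family kinases that bind CD36 and are also made by leukocytes, rose by 0.96 each. Lypla1, an acyl-protein thioesterase, fell (log2 fold change -0.89, adjusted p = 3.03e-07), and so did Zdhhc4, a palmitoyltransferase that acts on CD36 (-0.38, adjusted p = 0.0014). Cav1, the caveolin of fat and endothelium, was at 2592 ± 396 and 3131 ± 439 (log2 fold change 0.27, adjusted p = 0.074). Without AdCKO 1, 2 and 4, 2 were lower and 3 higher, and at equal totals 1 and 10, where 60.6% of all tested genes were higher.

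Among 9 genes of endothelial fatty acid transport, 5 were lower and 4 not called (median -0.47; 2 lower and 3 higher at equal totals). Over all tested genes 28.0% were called lower and 53.6% in either direction. The 5 include Pparg, which is given below and also stands on the adipocyte list. Vegfb, a growth factor that acts on endothelium, fell from a Control mean of 1029 ± 66.0 to 477 ± 16.5 normalized reads per kb (SD, n = 5; log2 fold change -1.10, adjusted p = 4.42e-08), and its receptors Flt1 and Nrp1 fell as well (-0.49 and -0.63). Dll4, a Notch ligand, fell by 0.81. Without AdCKO 1, 2 and 4, 2 of the 9 were lower.

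Of 6 tested binding proteins for fatty acids and acyl-CoA outside the 10, 4 were lower, 1 higher and 1 not called (median -0.67). Dbi, the acyl-CoA binding protein, fell from a Control mean of 24674 ± 2531 to 8843 ± 1094 normalized reads per kb (SD, n = 5; log2 fold change -1.48, adjusted p = 5.34e-07 with limma). Acbd5, an acyl-CoA binding protein of peroxisomes, and Acbd4 also fell (-0.98 and -0.91), and so did Scp2, which carries sterols and acyl-CoA (-0.42). Acbd3, a Golgi protein, rose by 0.32 (adjusted p = 0.0076), a call lost when Control 1, 2 or 3 or any AdCKO library was left out singly, with the replicate block or array weights, and without AdCKO 1, 2 and 4. Of the further FATP genes, 1 of 2 tested was higher and 1 was not called (median 0.06), as given above.

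Of 9 other acyl-CoA synthetases tested, 8 were lower and 1 higher (median -1.91). Acsm3, a medium-chain synthetase, fell from a Control mean of 266 ± 74.4 to 14.5 ± 7.18 normalized reads per kb (SD, n = 5; log2 fold change -4.16, adjusted p = 7.81e-08 with limma). Acss3, Acss1 and Acsf3, synthetases of the mitochondrion, fell as well (-2.30, -2.42 and -1.70). The member that rose was Acsl4, from 59.1 ± 10.4 to 107 ± 13.5 normalized reads per kb (log2 fold change 0.86, adjusted p = 8.07e-05). At equal totals the counts were 6 and 1.

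Of 9 genes tested from the list around entry of acyl-CoA into mitochondria, 8 were called lower and 1 higher (median -1.32). The list mixes enzymes of entry with enzymes that regulate it, so the count gives no direction for entry, which was not measured. Acaca and Acacb, the acetyl-CoA carboxylases, fell (log2 fold changes of -2.56 and -2.07), and so did Cpt2, the inner carnitine palmitoyltransferase (-1.37), and Crat, carnitine acetyltransferase (-1.04). Cpt1a, the liver form of the outer transferase, rose from a Control mean of 50.8 ± 8.14 to 154 ± 21.0 normalized reads per kb (SD, n = 5; log2 fold change 1.59, adjusted p = 3.88e-07 with limma), while Cpt1b, the form of muscle and brown fat, fell from 4914 ± 495 to 1994 ± 391 (-1.32). The counts of 8 lower and 1 higher were the same with either other scaling and without AdCKO 1, 2 and 4.

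Of 13 PPAR receptors and partners, 7 were lower, 1 higher and 5 not called (median -0.50). Among all tested genes 28.0% were called lower and 53.6% in either direction. Prdm16, Cebpa and Klf15, transcription factors of brown fat or of adipocytes in general, fell (log2 fold changes of -1.29, -1.11 and -1.56), and so did Nr1h3, the liver X receptor alpha (-0.37). Pparg, the adipogenic nuclear receptor, fell by 0.47 (adjusted p = 0.0054 with limma), and Ppara, which drives genes of fatty acid oxidation, was at 586 ± 122 and 415 ± 142 normalized reads per kb (SD, n = 5; log2 fold change -0.54, adjusted p = 0.043 with limma). Ppargc1a, a coactivator of thermogenic genes, rose by 2.24 (adjusted p = 3.70e-05 with limma). At equal totals the counts were 3 and 1, where 9.77% of all tested genes were lower and 60.6% higher. Without Control 1 only 4 were called lower.

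Across the 10 libraries, the patterns most like each gene were named by Pearson's r of log2(value + 1), as a description over points that include both groups. Acsl5 was closest to Aspg (0.998) and Cox7b (0.996), Slc27a2 to Xrcc6 and Ddhd2 (0.993 each), Acsl1 to Tshz1 (0.993) and Hip1r (0.990), and Fabp4 to Apeh (0.992) and Prdx5 (0.987). Lpl was closest to Fam175a and Mdm2 (0.982 each), and Slc27a1 to Zbtb32 (0.979) and Adi1 (0.977). Gpihbp1 was closest to the endothelial gene Egfl7 (0.953) and to Nrarp (0.926), Cd36 to Asns (0.957) and Foxj3 (0.953), Fabp5 to Gamt (0.972) and Tmem43 (0.970), and Fabp3 to Rbm15 (0.926) and Tex2 (0.911).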

How the data were processed

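Single libraries of polyadenylated RNA (TruSeq 2) from the iBAT of 5 Control and 5 AdCKO mice were compared. The authors used STAR with the mm9 genome for alignment, iRNA-seq for exon counts per gene and DESeq2 for normalization, and the deposited values are a signal, normalized reads per kb of counted exon. The deposited table also holds the authors' own fold changes and p-values, which were not used. No value is 0. At the best-fitting of many step sizes, 22.3% to 23.2% of the low values per library lay within 0.1 of a whole-read step. Chance gives 20% for a fixed step and more for the best of many. Whole reads were thus not recovered, and precision rests on the spread between mice.

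Values were tested as log2(value + 1) with limma 3.58.1 in R 4.3.3 (intensity trend, two-sided, Benjamini-Hochberg) for 11244 genes with a mean of at least 10 in either group. An adjusted p under 0.01 counted as a call. For 7 ratios within a library and 16 values relative to a marker list, exact two-sided permutation tests were read at 0.05, unadjusted. The fit was tested on simulated data. Genes overlapping or resembling the 10 were found in the mm9 annotation and with minimap2 2.31-r1302, counting matches of at least 200 bases at 90% identity. Promoters came from RefSeq on GRCm38.p6, another build. Plots used Python 3.11.15 and matplotlib 3.10.9.

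The genes, lists and tests were chosen with earlier results of these data known. Besides the 10, the text names up to 4 genes with the smallest p per related list, called genes that go against their list, the most abundant markers, and the 2 genes correlating best with each of the 10. Pcsk6, Lmf1, Angptl4, Cav1, Nr1h3, Ppara, Pparg, Cpt1b, Crat and the genes overlapping Fabp3 and Slc27a2 were named after their values were seen. Alternatives were pseudocounts of 0.1 and 10, no or a lower filter, the same total in every library, quantile normalization, limma with no trend, with array weights or with the trend fitted robustly, the replicate number as a block, a threshold of 0.05 and leaving out each library. Leaving out AdCKO 1, 2 and 4 together was added after seeing their muscle markers.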

Additional observations from a re-analysis of the deposited data

Results flagged for a closer look

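Of 66 sets of 5 libraries tested for a value far from the rest (Dixon's test at 95%), 4 were flagged, where chance gives about 1 in 20. The log2 ratio of Acsl5 to Acsl1 was -2.69 in Control 1, against -2.30 to -2.15 in the other Control libraries. Control 1 also stood apart for Lpl relative to the endothelial markers, with 6.04 against 5.46 to 5.62, and it had the highest Lpl of its group (14204 normalized reads per kb). For Fabp4 relative to the macrophage markers, Control 3 was at 11.7 (log2 units) and the other Control libraries at 12.5 to 12.7, and the sum of its macrophage markers was the highest in Control (1332.2). Acsl1 relative to the adipocyte markers was 0.929 in AdCKO 3 and 0.650 to 0.719 in the other AdCKO libraries. The difference between groups kept its side of the threshold without that library for the first 3, whereas for Acsl1 it went from 0.25 to 0.20 (exact permutation p = 0.13).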

How the results depend on the processing

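Slc27a2, Acsl5 and Lpl kept their direction and their call at every setting tried. With the same total in every library, 2 of the 10 genes were called lower and 5 higher, related genes called higher numbered 25, and log2 fold changes with adjusted p (limma) were 0.60 (0.00072) for Gpihbp1, 0.64 (2.81e-05) for Cd36, 0.83 (0.0033) for Fabp3, 0.86 (0.00041) for Fabp5, -0.36 (0.059) for Slc27a1 and -0.10 (0.36) for Acsl1. By construction this scaling raised the log2 fold changes of all genes, and their median moved from -0.01 to 0.46. Among all tested genes 9.77% were then called lower and 60.6% higher. With quantile normalization 2 were lower and 4 higher, with 0.86 (1.83e-05) for Cd36, 1.06 (0.00049) for Fabp3, 0.75 (0.00093) for Fabp5, -0.47 (0.047) for Slc27a1 and a turned sign for Acsl1, 0.29 (0.021). Among all tested genes 31.1% were then lower and 22.5% higher. Relative to marker lists, quantile normalization gave -0.62 for Lpl and macrophage markers (exact permutation p = 0.14), 0.50 for Cd36 and endothelial markers (sign turned, exact permutation p = 0.024) and 0.11 for Fabp4 and adipocyte markers (exact permutation p = 0.10). Quantile normalization sets each value by its rank within a library. By mean level per kb, Lpl ranked 26th in Control and 5th in AdCKO, Cd36 137th and 60th, and Acsl1 55th and 33rd. What changed the ranks was not tested. Fabp4, top in every library, is set to the same value there by construction. Fabp4 was called at -0.44 without the trend (adjusted p = 0.00026), with a robust trend (0.0074) and at a threshold of 0.05 (0.020).

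Without AdCKO 1, 2 and 4, which leaves 2 AdCKO libraries, Acsl1 was at -0.55 (adjusted p = 0.011), Gpihbp1 to Lpl at -0.35 and Lpl against endothelial markers at 0.24 (exact permutation p = 0.29 each), Slc27a1 against adipocyte markers at -0.41 (exact permutation p = 0.048), Acsl1 against them at 0.31 (exact permutation p = 0.14), and 7 related genes were called higher. Among all tested genes 18.7% were then called higher. With each library left out, the genes called lower were 4 to 5 and those called higher 1, Fabp4 ranged from -0.47 to -0.40 and was called without AdCKO 5, and Acsl1 against the adipocyte markers ranged from 0.18 to 0.30, with the call lost without any AdCKO library. The 4 alternatives of pseudocount and filter changed no call among the 10 genes. Calls over all genes under each are within 1.5 times of the main counts except with the same total in every library (1098 lower, 6811 higher, against 3152 and 2879).

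Same-numbered Control and AdCKO libraries did not deviate together (r of -0.268 to 0.098), and not every library correlated best with its own number. No sign of a pairing by number was seen, although these correlations cannot show that none exists. The fit with the replicate block called 4 of the 10 lower and 1 higher, and 2838 genes lower and 2592 higher in all. With it the exact tests of ratios cannot go below 0.062.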

Other observations

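Variation between mice differed among the 10 genes. Slc27a1 had a coefficient of variation of 4.14% in Control and 26.7% in AdCKO, and Acsl1 12.0% and 4.57%. Slc27a2 had 31.1% and 42.1%. Among the AdCKO libraries, AdCKO 3 and 5, which lack the muscle markers, had the highest Slc27a2, Acsl5 and Fabp3 and the lowest Slc27a1, and their brown adipocyte markers summed to 25397 and 31265 normalized reads per kb, against 13741 to 19156 in the other AdCKO libraries. The lymphocyte markers summed to 143 in AdCKO 1 and to at most 36.9 in each other library.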
